A study of Mus musculus with 2 samples.

Results

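The 40 genes described here encode proteins of mitosis and cell division, and they were chosen by name: the cyclin B1, B2 and A2 genes, the mitotic kinases, the spindle checkpoint, the kinetochore, mitotic kinesins, cytokinesis proteins, the chromosomal passenger complex and proteins that shape mitotic chromosomes. All 40 of 40 names were found in a table of 12860 genes. RNA of unsorted whole bone marrow was sequenced from 1 mouse of genotype Srsf2 P95H KI/+ and from 1 Srsf2 WT mouse, both on a C57BL/6 background, both carrying R26CreERT2 (a tamoxifen-activated Cre recombinase at the Rosa26 locus, which is active in most cell types) and both given tamoxifen in vivo. The P95H mouse, aged 14 weeks, was female and the WT mouse, aged 12 weeks, male, so genotype, sex, age and individual animal cannot be told apart. Srsf2 encodes a splicing factor, and the comparison asks how marrow transcripts differ once the mutant protein is made from the gene's own locus. With 1 library per genotype there is no replicate error and no test, and every difference below lacks a replicate check.

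Mitosis begins when cyclin B and its kinase Cdk1 become active, and it ends when the anaphase-promoting complex (APC/C), a ubiquitin ligase, marks cyclin B for destruction. In between, kinetochores attach chromosomes to spindle microtubules, the spindle checkpoint holds back the APC/C until attachment is complete, and kinesin motors and the central spindle then divide the cell. Most of these genes are transcribed late in the cell cycle, and repression in resting cells acts through a promoter element called the cell cycle genes homology region (CHR), often beside CCAAT boxes bound by the factor NF-Y. In bone marrow the dividing cells include erythroblasts, granulocyte precursors, pro-B and pre-B cells and progenitors, and mature neutrophils do not divide.

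The promoter windows of the genes are shown first because they hold what most members share beyond their function. RefSeq windows of build GRCm38.p6, from 250 bases before to 50 bases after the gene start, were available for 34 of the 40 genes. The CHR letters TTTGAA or TTCGAA occurred on either strand in 26 of these 34 genes (76.5%), against 21.7% of all 27025 genes with windows. Those 27025 genes were not limited to the 12860 measured in this marrow. CCAAT occurred on either strand in 23 of 34 (67.6%), against 41.1%, and both occurred together in 21 of 34 (61.8%), against 8.61%. A match to E2F letters (TTCCCGC on either strand, and likewise TTGGCGC and also TTCGCGC) occurred in 8 of 34 (23.5%), against 9.20%. Of 87 other mitosis genes, described below, 70 had windows. CHR letters occurred in 61.4% of these 70, CCAAT in 68.6%, both together in 45.7% and E2F letters in 24.3%. The letters are thus not particular to the members. Counted per window of the members, matches of different motifs overlapped 4 times, with the same pair in Ect2 counted in each of its overlapping windows. In 24 of the 26 genes with CHR letters the nearest match began within 50 bases of the gene start, and 15 of the 23 genes with CCAAT held it more than 1 time in the window drawn. A match describes letters in the window and shows no binding. The 4 genes that hold both motifs with the CHR letters nearest to the start are Cenpf, Kif23, Ccnb2 and Prc1. Their sequences from 150 bases before the start to base 30 of the transcript follow, 5′ to 3′ on the strand of the gene, with the CHR and CCAAT letters (CCAAT or its complement ATTGG) in capitals. Cenpf lies at chr1:189688057-189688236 on the minus strand, Kif23 at chr9:61946770-61946949 on the minus strand, Ccnb2 at chr9:70421525-70421704 on the minus strand and Prc1 at chr7:80294301-80294480 on the plus strand.
Cenpf: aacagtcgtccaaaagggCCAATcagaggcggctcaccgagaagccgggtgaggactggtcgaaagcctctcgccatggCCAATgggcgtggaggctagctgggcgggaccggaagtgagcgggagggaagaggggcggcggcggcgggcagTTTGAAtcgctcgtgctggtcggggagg
Kif23: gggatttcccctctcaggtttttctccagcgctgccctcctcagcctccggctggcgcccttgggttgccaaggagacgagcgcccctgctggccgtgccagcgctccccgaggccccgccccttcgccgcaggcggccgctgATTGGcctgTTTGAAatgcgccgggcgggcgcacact
Ccnb2: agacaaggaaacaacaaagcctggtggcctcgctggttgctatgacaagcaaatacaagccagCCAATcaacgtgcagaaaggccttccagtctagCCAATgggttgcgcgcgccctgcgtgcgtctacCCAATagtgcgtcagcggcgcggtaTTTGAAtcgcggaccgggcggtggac
Prc1: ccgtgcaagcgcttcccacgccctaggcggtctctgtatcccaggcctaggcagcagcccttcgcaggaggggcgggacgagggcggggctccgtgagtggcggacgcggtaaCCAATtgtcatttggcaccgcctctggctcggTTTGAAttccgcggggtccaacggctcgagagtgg
The nearest CHR letters began at base 3 of the transcript in Cenpf and Kif23, at base 5 in Ccnb2 and 5 bases before the start in Prc1. Ccnb2 held 3 CCAAT boxes in the stretch printed and Cenpf 2, while Kif23 and Prc1 held 1 each. Splitting the 34 genes by these letters, the median difference between the libraries, defined below, was -0.07 in the 21 genes with both motifs and -0.08 in the 13 without both.

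**Figure D1:**
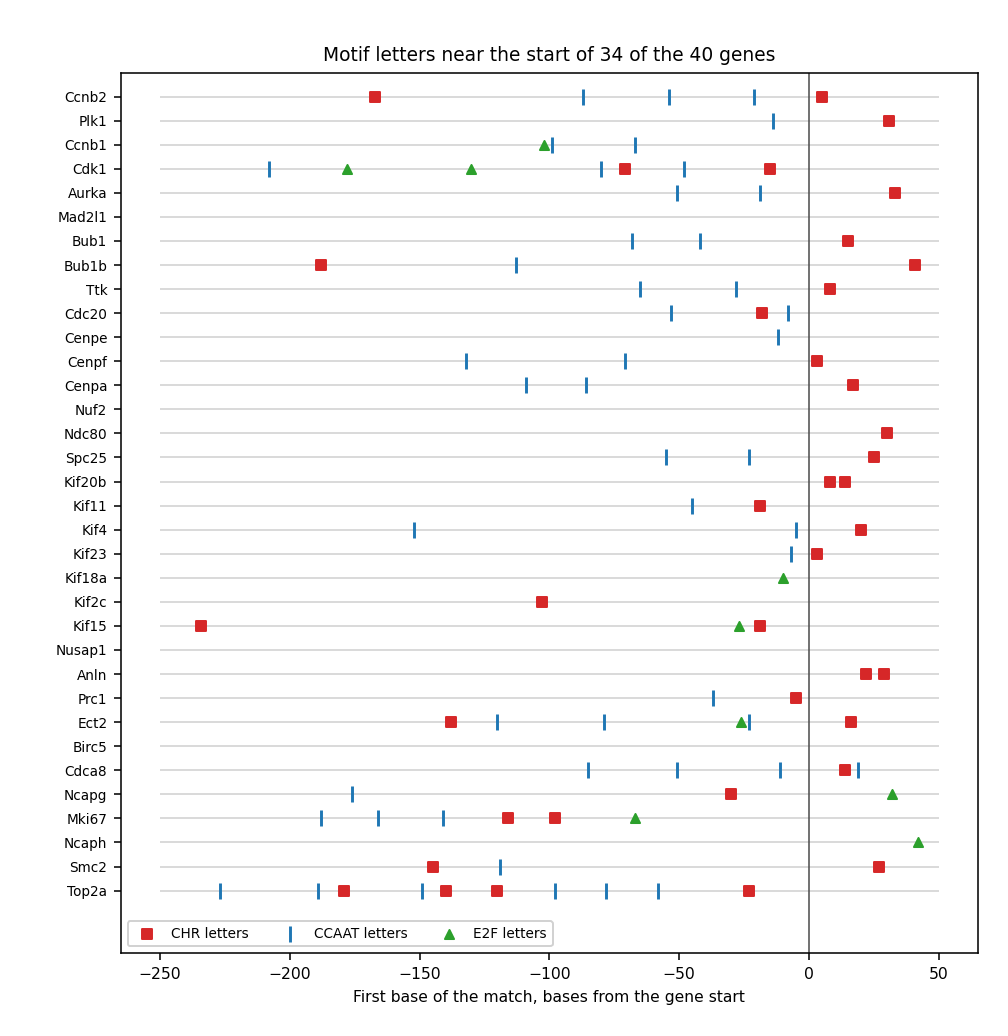
Positions of CHR letters (squares), CCAAT letters (bars) and E2F letters (triangles) in 1 window per gene for 34 of the 40 genes; the horizontal axis is the distance in bases of the first base of a match from the gene start. In 24 of the 26 genes with CHR letters the nearest square lies within 50 bases of the start.

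With the deposited scaling, the levels of the 40 genes were close to equal in the P95H and WT libraries. Levels are in CPM, read counts divided by a scaled library size as the authors deposited them, and a difference is that of log2(CPM + 1) in P95H minus that in WT, a scale that shrinks differences of low genes. The whole table summed to 42366695 counts for P95H and to 44733445 for WT. Member counts ran from 1240 (Ttk) to 135911 (Mki67) in P95H and from 1489 to 172011, for the same genes, in WT. Every member had at least 31.1 CPM in both, so that all 40 would pass a minimum of 10 CPM. Differences ran from -0.34 (Nusap1) to 0.16 (Spc25), and the median was -0.05, beside a median of 0.00 over all 12860 genes. The middle of the members was narrow, with quartiles of -0.11 and 0.02, where those of all genes were -0.23 and 0.22 and those of the 8481 genes with at least 10 CPM in a library were -0.15 and 0.25. The median of those 8481 genes was 0.04, so the members lay further below it than below the median of all genes. In this unsorted tissue, fewer dividing cells and less RNA of a gene per cell cannot be told apart.

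At a size of 2-fold or more, 0 of 40 genes were higher and 0 lower, beside 3.86% of all genes in either direction (1.76% higher, 2.1% lower). At 1.5-fold, 0 members passed either way, beside 7.05% of all genes higher and 8.08% lower, 15.1% together. At 1.2-fold 1 member passed, Nusap1 on the lower side, beside 22.8% of all genes lower, 22.1% higher and 44.8% together. That count depended on scaling: with plain totals of listed counts 18 members were 1.2-fold lower, beside 39.2% of all genes, and with totals that leave out haemoglobin and the 20 most abundant genes 7 were, beside 34.4%. Within 0.1 of 0 lay 22 of the 40 members, beside 24.3% of all genes and 27.3% of those with at least 10 CPM. Below 0 lay 25 members and above 0 lay 15, beside 50.3% of all genes below 0 and 49.7% above. Of the 8481 genes with at least 10 CPM in a library, 44.1% lay below 0.

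Direction depended on scaling. With plain totals of listed counts in place of the authors' scaling, all 40 members lay below 0 and the median of all genes moved by -0.17. With totals that leave out haemoglobin and the 20 most abundant genes, 39 lay below 0, all but Spc25 at 0.02, and the median of all genes moved by -0.13. Relative to the median of all genes, 25 members lay lower with the deposited CPM, 29 with plain totals and 27 with the other totals, and the median of the members lay below that median by nearly the same amount (-0.05, -0.06 and -0.06). Every direction given below for a member above 0 therefore holds for the deposited CPM and turns with plain totals.

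**Figure D2:**
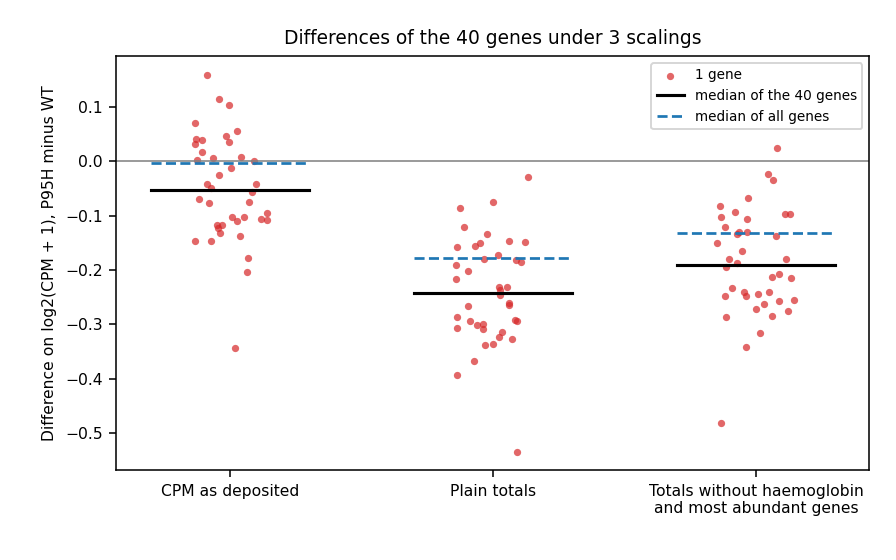
Difference of each of the 40 genes (points) on log2(CPM + 1), P95H minus WT, with the deposited CPM, with plain totals and with totals that leave out haemoglobin and the 20 most abundant genes; solid lines are the median of the 40 genes and dashed lines that of all 12860. The 40 genes shift together with all genes, and the solid line stays just below the dashed one, by 0.05 to 0.06.

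Counting error was of the same order as many of these differences. With the deposited CPM, the 95% counting interval of the CPM ratio, P95H over WT, lay wholly below 1 for 19 members, beside 32.8% of all genes, wholly above 1 for 6, beside 34.1%, and held 1 for 15, beside 33.1%. These intervals compare the 2 libraries and say nothing of the spread between mice, and reads without molecular identifiers are not independent molecules. Summed over all 40 genes, the CPM was 9221 in P95H and 9586 in WT, a ratio of 0.962 (0.958 to 0.966). As a share of listed counts, the members took 0.864% in P95H, with an exact binomial interval of 0.861% to 0.867%, and 1.03% in WT, with one of 1.02% to 1.03%, a wider gap than that of the CPM because the share uses plain totals. Mki67 alone held 37.1% and 37.5% of the members' counts, and without it the ratio of summed CPM was 0.967 (0.962 to 0.973).

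**Figure D3:**
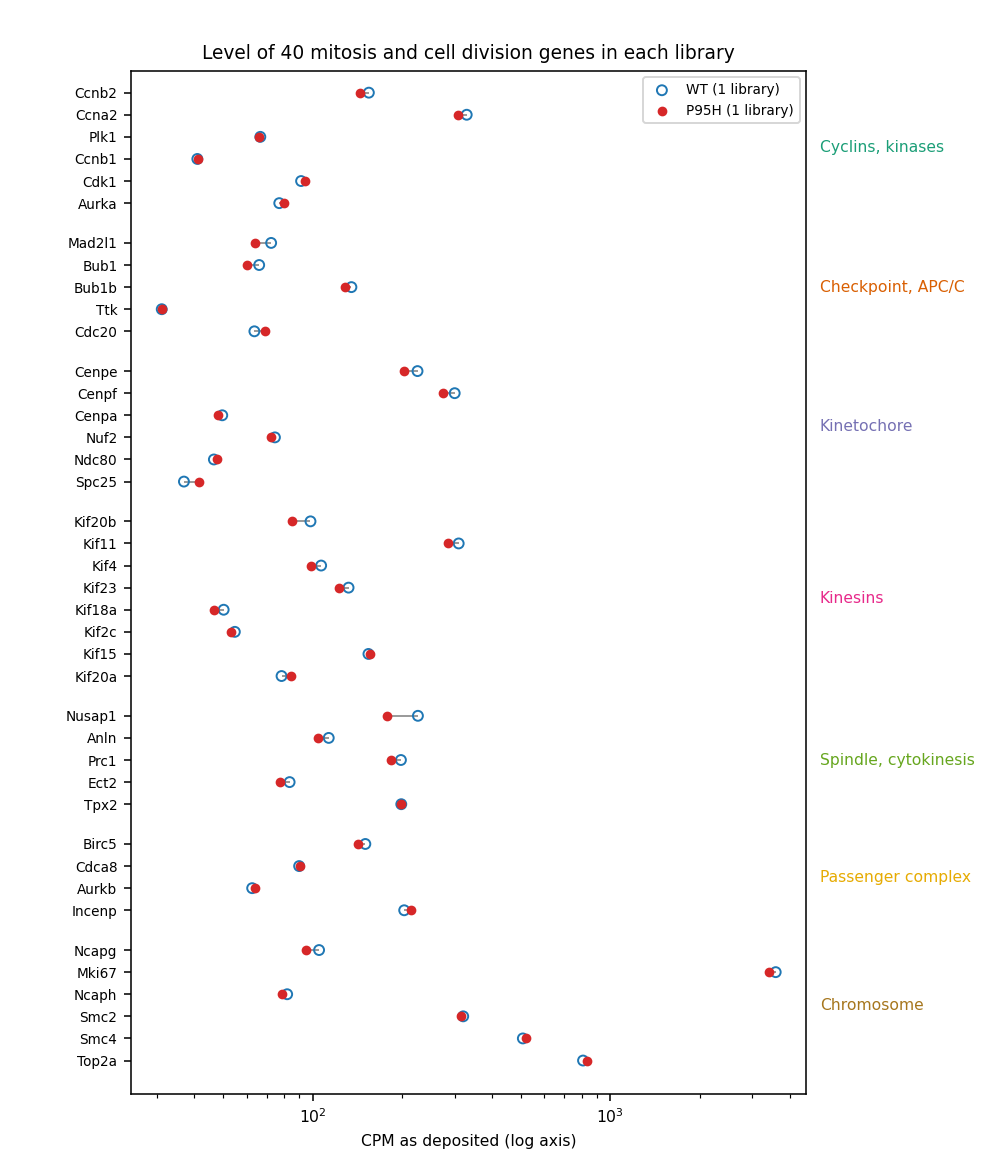
Level of each of the 40 genes, in CPM on a log axis, in the P95H library (filled) and the WT library (open), grouped by role, 1 library per genotype with no error bar. The symbols of most genes overlap, and Nusap1 shows the widest gap, at 178 CPM against 226.

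Cdk1, the kinase that drives entry into mitosis, had 3731 counts in P95H and 4376 in WT, 94.0 against 91.4 CPM (ratio 1.03, 0.984 to 1.07). Its mitotic partner cyclin B1 (Ccnb1) had 1629 and 1961 counts, 41.0 CPM in both, a ratio of 1.00 (0.938 to 1.07). Both intervals held 1 with the deposited CPM, and with plain totals the differences were -0.15 for Cdk1 and -0.18 for Ccnb1. The cyclin B2 gene Ccnb2 had 5704 and 7391 counts, 144 against 154 CPM (ratio 0.931, 0.899 to 0.964). Cyclin A2 (Ccna2), which acts in S phase and early mitosis, had 12226 and 15757 counts, 308 against 329 CPM (ratio 0.936, 0.914 to 0.958). Ccnb2 and Ccna2 were thus the 2 of the 6 genes of this role whose interval lay below 1, while none lay above. Plk1, a kinase of centrosome maturation and mitotic exit, had 2624 and 3192 counts, 66.1 against 66.7 CPM (ratio 0.992, 0.941 to 1.04). Aurka, the Aurora kinase of centrosomes and spindle poles, had 3185 and 3696 counts, 80.2 against 77.2 CPM (ratio 1.04, 0.991 to 1.09). The median difference of the 6 was 0.00.

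Genes of the spindle checkpoint and of its target lay on both sides of 0. Mad2l1 (Mad2), which binds the APC/C activator to hold it inactive, was the third lowest member, with 2540 counts in P95H and 3471 in WT, 64.0 against 72.5 CPM (ratio 0.883, 0.838 to 0.929). The checkpoint kinase gene Bub1 had 2381 and 3164 counts and a difference of -0.14, and Bub1b (BubR1), part of the inhibitor of the APC/C, had 5082 and 6458 counts and a difference of -0.07. Ttk (Mps1), the kinase that starts the checkpoint signal, had 1240 and 1489 counts, the fewest of all members, and a difference of 0.01. Cdc20, the APC/C activator that the checkpoint restrains, was the second highest member, with 2738 and 3049 counts, 69.0 against 63.7 CPM (ratio 1.08, 1.03 to 1.14). Cdc20 shares 53 exon bases with Elovl1 on the opposite strand in the annotation of GRCm38, and Elovl1 had 1928 and 1639 counts (ratio 1.42, 1.33 to 1.52). The sources used here do not say whether counting used strand, and its part in the Cdc20 value was not tested. The 3 checkpoint genes Mad2l1, Bub1 and Bub1b had intervals below 1, Cdc20 one above 1, and Ttk one that held 1.

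At the kinetochore, Cenpe and Cenpf lay lower than the other 4 members. Cenpe, a kinetochore kinesin that moves chromosomes to the spindle equator, had 8056 counts in P95H and 10770 in WT, 203 against 225 CPM (ratio 0.902, 0.876 to 0.929). Cenpf, a protein of the outer kinetochore, had 10857 and 14358 counts and a difference of -0.13. Cenpa, the histone H3 variant that marks centromeres, had 1904 and 2378 counts (difference -0.05). The Ndc80 complex, which grips microtubules, is represented by Ndc80 with 1900 and 2229 counts (0.04), Nuf2 with 2876 and 3574 (-0.04) and Spc25 with 1641 and 1768. Spc25 was the highest member, at 41.3 against 36.9 CPM (ratio 1.12, 1.05 to 1.2), while the remaining subunit gene Spc24, which is not a member, lay at -0.08 with 1477 and 1886 counts. The 4 subunit genes of this complex thus ran from -0.08 to 0.16, and the intervals of Ndc80, Nuf2 and Spc24 held 1.

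Of the 8 kinesin genes, 6 lay below 0 and 2 above, with a median of -0.11. Kif20b, a kinesin of late cytokinesis, was the second lowest member, with 3382 counts in P95H and 4706 in WT, 85.2 against 98.3 CPM (ratio 0.867, 0.829 to 0.906). Its relative Kif20a, which carries the passenger complex to the central spindle, was the third highest member, with 3353 and 3762 counts, 84.5 against 78.6 CPM (ratio 1.08, 1.03 to 1.13). Kif20a and Kif20b thus lay on opposite sides of 1 with the deposited CPM, though not with plain totals, and had intervals that did not meet. Kif11 (Eg5), which pushes spindle poles apart, had 11309 and 14808 counts (difference -0.12), and Kif15, which can help it keep the spindle bipolar, had 6184 and 7368 (0.02). The chromokinesin gene Kif4, on the X chromosome, had 3902 and 5110 counts (-0.12) in a female and a male library. Kif23 (Mklp1), the motor of the centralspindlin complex, had 4854 and 6317 counts (-0.11), and its partner Racgap1, which is not a member, had 6194 and 7230 (0.05 with the deposited CPM). Kif18a, which dampens chromosome movements, had 1849 and 2404 counts (-0.11), and Kif2c (MCAK), which takes microtubule ends apart, had 2109 and 2621 (-0.04). Intervals lay below 1 for Kif20b, Kif11, Kif4, Kif23 and Kif18a and above 1 for Kif20a. Kif20a shares 1271 exon bases with Cdc23 on the opposite strand and Kif4 shares 753 with Pdzd11, which lay at -0.02 and 0.26.

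Nusap1, which stabilises and bundles spindle microtubules near chromosomes, was the lowest member and, with the deposited CPM, the only 1 of the 40 beyond 1.2-fold. It had 7052 counts in P95H and 10803 in WT, 178 against 226 CPM (ratio 0.787, 0.764 to 0.811), and lay at -0.34, with Kif20b next at -0.20. Nusap1 was also the lowest member with plain totals, at -0.53. Its exons share 172 bases with Oip5, a centromere gene on the opposite strand, which had 496 and 669 counts and lay at -0.15. Tpx2, which activates Aurka and nucleates spindle microtubules, had 7877 and 9498 counts, 198 CPM in both libraries, with an interval from 0.971 to 1.03. Prc1, which bundles the antiparallel microtubules of the central spindle, had 7277 and 9473 counts (-0.11). The contractile ring scaffold gene Anln had 4120 and 5419 counts (-0.12), and Ect2, the activator of RhoA at the division site, had 3088 and 4004 (-0.10). Of these 5 genes, 4 lay below 0 with intervals below 1, and the median was -0.11.

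The chromosomal passenger complex was the only role with a median above 0, at 0.02 for 4 genes, and below 0 with plain totals. Aurkb, its kinase, which corrects faulty attachments, had 2539 counts in P95H and 2997 in WT, 64.0 against 62.6 CPM (ratio 1.02, 0.969 to 1.08). The scaffold gene Incenp had 8461 and 9715 counts, 213 against 203 CPM (ratio 1.05, 1.02 to 1.08), the fourth highest member. Birc5 (survivin) had 5655 and 7193 counts, 142 against 150 CPM (ratio 0.948, 0.916 to 0.982), and Cdca8 (borealin) had 3593 and 4310 (difference 0.01). With the deposited CPM, though not with plain totals, Incenp lay above 1 and Birc5 below 1 by the counting interval, although their proteins work in 1 complex.

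Proteins of mitotic chromosomes held the most abundant members. Mki67 (Ki-67), the coat protein of mitotic chromosomes used as a marker of cycling cells, had 135911 counts in P95H and 172011 in WT, rank 19 and rank 18 among all genes, 3424 against 3592 CPM (ratio 0.953, 0.946 to 0.960). Top2a, the topoisomerase that untangles sister chromatids, had 33162 and 38753 counts, 835 against 809 CPM (ratio 1.03, 1.02 to 1.05). The 2 genes in common use as markers of cycling cells thus lay on opposite sides of 1 with the deposited CPM, though not with plain totals, by less than 1.2-fold each. Of the condensin subunits, which compact chromosomes, Smc4 had 20671 and 24327 counts (difference 0.04), Smc2 had 12487 and 15336 (-0.03), Ncaph had 3129 and 3929 (-0.06) and Ncapg had 3763 and 5029 (-0.15). The fifth subunit gene of condensin I, Ncapd2, which is not a member, lay at -0.12, so that the core ATPase genes Smc2 and Smc4 lay nearer to 0 than Ncapg and Ncapd2. Ncapg shares 769 exon bases with Lcorl on the opposite strand, which lay at 0.22.

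**Figure D4:**
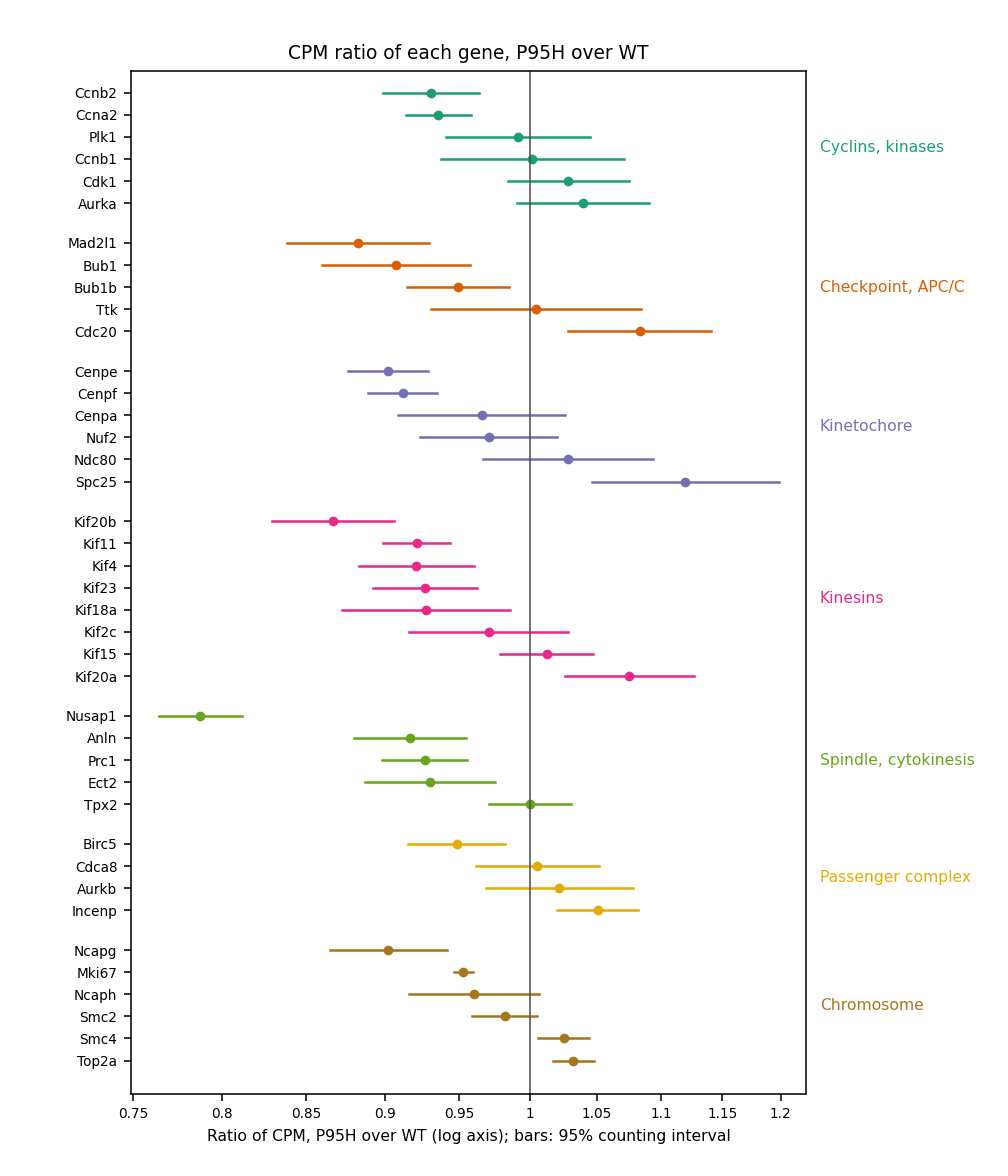
Ratio of the deposited CPM, P95H over WT, on a log axis for the 40 genes by role, with 95% counting intervals as bars, which do not cover the spread between mice. Nusap1 stands at 0.787, apart from the other 39 genes, which lie from 0.867 (Kif20b) to 1.12 (Spc25), and with plain totals all 40 lie below 1.

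Per kilobase of exon, by GENCODE M21 lengths of GRCm38 rather than the authors' annotation, the order of the members was much the same in both libraries. Mki67 was first with 340 CPM per kilobase in P95H and 357 in WT, followed by Top2a with 160 and 155, Smc4 with 121 and 118, Ccnb2 with 93.9 and 101 and Ccna2 with 84.9 and 90.7. Mad2l1 was last with 7.97 and 9.03, after Ttk with 10.8 and 10.7 and Kif18a with 13.8 and 14.9. The first 5 and the last 3 genes held the same places in both libraries. Members with longer exons tended to lie lower. Across the 40 genes, which share both libraries, Spearman's rho of the difference with exon length (1.53 to 11.1 kilobases) was -0.45. It was 0.23 over 84 other mitosis genes and -0.08 over 12363 genes with a length. The levels per kilobase and this correlation were not among the planned results. In all, 8 members share exon bases with a gene on the opposite strand and 0 with one on the same strand, and without those 8 the median of the members was -0.05.

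Other mitosis genes gave nearly the same picture. Of a list of 87 further genes of mitosis, all measured, 61 lay below 0 and 26 above, with a median of -0.05, the same as that of the members, and 0 were 2-fold higher or lower. With plain totals 82 lay below 0 and 5 above, with a median of -0.24. The lowest was Cdc25b, a phosphatase that activates Cdk1, with 3685 counts in P95H and 6666 in WT (ratio 0.667, 0.640 to 0.694), followed by the kinase gene Pbk at -0.29. The highest was Lin54, the subunit of the DREAM complex that binds CHR elements, with 3913 and 3842 counts (ratio 1.23, 1.17 to 1.28), followed by the phosphatase gene Cdkn3 at 0.21 and Cep55, of late cytokinesis, at 0.20. Among the regulators of late cell cycle genes, Foxm1 lay at -0.05, Mybl2 at -0.10 and Lin9 at -0.08.

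Genes of earlier cell cycle stages stood beside these. Of 40 DNA replication genes 34 lay below 0, with a median of -0.09 and a range from -0.38 (Gins3), -0.29 (Cdc6) and -0.25 (Tk1) to 0.04 (Rrm2), 0.13 (Gmnn) and 0.13 (Rfc5). With plain totals all 40 lay below 0, with a median of -0.28, so the direction of Rrm2, Gmnn and Rfc5 turned. Of 39 measured replication-dependent histone genes, 38 lay below 0, with a median of -0.21, from -0.55 (Hist1h1a), -0.50 (Hist1h3d) and -0.44 (Hist1h1b) to -0.03 (Hist2h2ab), -0.01 (Hist1h2bc) and 0.02 (Hist1h3c), and with plain totals all 39 lay below 0, with a median of -0.40. Several of these histone genes are near-identical in sequence, and reads may have been divided among them. Of 29 measured genes that control entry into the cycle, 18 lay below 0 and 0 passed 2-fold. Their median was -0.13, with quartiles of -0.21 and 0.06. With plain totals 26 lay below 0, with a median of -0.32, and with the other totals 25, with a median of -0.26. The list mixes genes that drive entry with genes that restrain it, such as Rb1 at -0.27 and Rbl2 at 0.08. Its median is therefore no measure of entry. The D-type cyclins, which start the cycle with Cdk4 and Cdk6, diverged: Ccnd2 had 1114 counts in P95H and 1974 in WT (ratio 0.681, 0.632 to 0.733), Ccnd1 had 358 and 633 (0.682, 0.598 to 0.778), and Ccnd3 had 13281 and 11845 (1.35, 1.32 to 1.39). Cdkn2d (p19), an inhibitor of Cdk4 and Cdk6, was the highest, with 423 and 272 counts (1.88, 1.61 to 2.19), followed by Ccnd3 and then the phosphatase gene Cdc25a with 3071 and 2865 (1.29, 1.23 to 1.36). Mycn was low in both libraries, with 20 and 53 counts.

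Markers of the marrow's cell types differed far more than the members, in both directions. All 20 erythroid markers lay below 0 (median -0.50; Hba-a2 at -1.17, Car1 at -1.01, Alas2 at -0.99), with a summed CPM of 11279 in P95H and 18262 in WT. All 16 measured pro-B and pre-B markers lay below 0 (median -1.29; Cd79a at -1.76, Cd79b at -1.75), summing to 291 against 826 CPM. All 8 measured primary granule genes, which neutrophil precursors express, lay above 0 (median 0.57; Ctsc at 1.08, Ctsg at 0.69, Prtn3 at 0.67), summing to 3948 against 2770 CPM, and all 13 secondary granule genes lay above 0 (median 0.96; Olfm4 at 1.57, Lcn2 at 1.17, Ltf at 1.16). The median was -0.27 for stem and progenitor markers, with Angpt1 at -0.89, Gata2 at -0.87 and Hoxa9 at 0.71. It was -0.30 for megakaryocytes (Pf4 at -0.92, Ppbp at -0.66) and 0.35 for monocytes and macrophages (Cd14 at 2.30, Fcgr1 at 1.78, Ly6c2 at 0.70), where 4 of the 14 markers lay below 0 (Adgre1 at -0.33, C1qb at -0.29, Cx3cr1 at -0.21, C1qc at -0.06). For lists that hold mostly resting cells it was -1.81 for mature B cells (Cxcr5 at -2.49, Fcmr at -2.35, Fcer2a at -2.33), -0.44 for T cells (Tcf7 at -1.16, Cd8b1 at -0.83, Cd28 at -0.79) and -1.16 for natural killer cells (Prf1 at -1.76, Eomes at -1.68, Gzma at -1.38). It was -0.92 for eosinophils (Ear10 at -4.76, Il5ra at -1.33, Ear2 at -1.25, the Ear genes being a family of close copies among which reads may have been divided) and -0.56 for stromal and endothelial cells (Cdh5 at -0.88, Cxcl12 at -0.80, Ebf3 at -0.77). The median of each of these 12 lists kept its sign with plain totals, where 7 of the 8 primary granule genes lay above 0, 6 of the 14 monocyte and macrophage markers lay below 0, and the median of the 14 was 0.16. Above 0 with the deposited CPM lay only Cd37 (0.16) of the 11 mature B markers and only Nkg7 (0.35) of the 10 natural killer markers. So did Gp1bb (0.35) of 12 megakaryocyte, Col3a1 (0.02) of 14 stromal and endothelial and 3 of 13 stem and progenitor markers. Nkg7 held 49.1 of the 65.2 summed CPM of its list in P95H. With plain totals 0 mature B and 0 stromal and endothelial markers lay above 0. All T cell and eosinophil markers lay below 0. No marker of these 12 lists that was measured stood at 0 counts in either library. The marrow was not sorted, these are transcript levels rather than cell numbers, and the part of these shifts in the members' values was not tested.

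**Figure D5:**
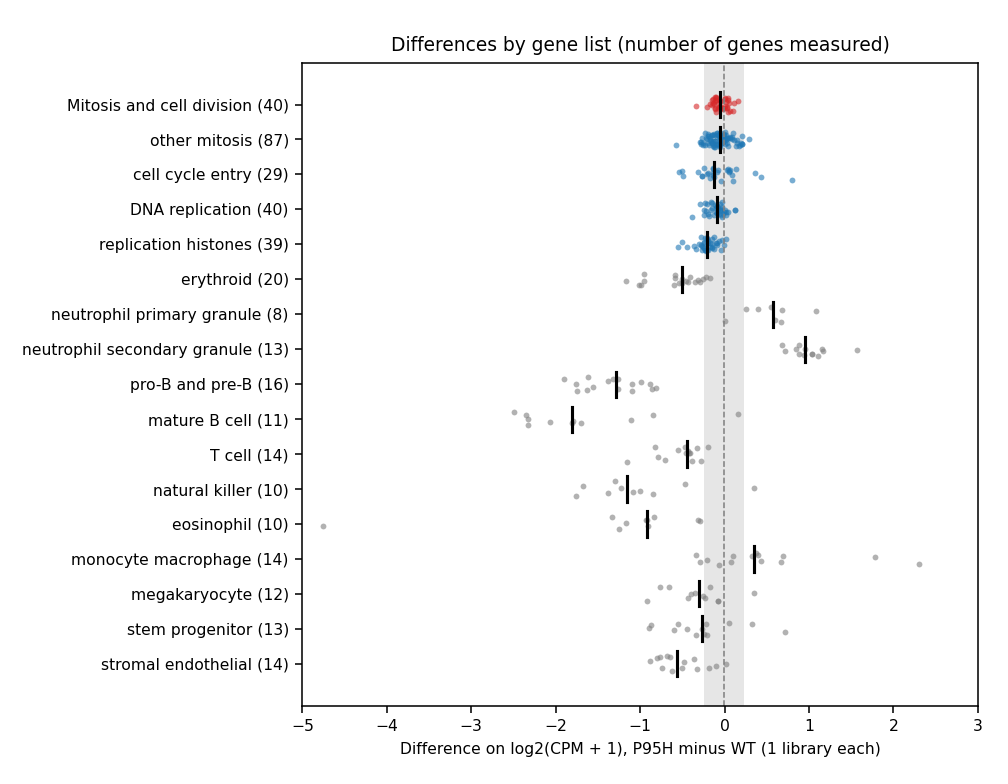
Difference on log2(CPM + 1), P95H minus WT, of each gene (points) in the 40 mitosis and cell division genes, 4 other cell cycle lists and 12 cell type marker lists, with medians as black bars, the quartiles of all genes as a grey band and their median as a dashed line. The 40 genes lie within -0.34 to 0.16, while the marker lists have medians from -1.81 (mature B) to 0.96 (secondary granule).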

How the data were processed

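Stranded libraries of ribosome-depleted total RNA were sequenced in a single run, per the labels' protocols. Tools named without roles in the submitters' processing notes are STAR 2.5.3a, featureCounts, edgeR, Trim Galore, cutadapt and Picard 1.96, with the build mm9. Raw counts per gene, and CPM, a scaled signal whose columns do not share a common sum (effective sizes of 39696495 and 47880724 reads), are as the authors deposited them. The authors also deposited a log2 fold change, a fold ratio and a mean made from the CPM columns, per the file headers, and these were not used.

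Groups came from the genotype label. Ratios of CPM carry exact conditional binomial (Clopper-Pearson) 95% intervals, and the floor was not needed because no named gene was at 0. No p-value was computed. Calls used a size of 2-fold on log2(CPM + 1), over all 12860 genes. The members and lists were chosen with earlier results of these data known. Every member is named. From the other cell cycle lists the 3 highest and 3 lowest genes are named, and from marker lists the 3 largest differences. Not every gene picked in this way is reported here. Spc24, Racgap1, Ncapd2, Oip5, Foxm1, Mybl2, Lin9, Rb1, Rbl2 and the overlapping genes were added after their values were seen. So were the monocyte and macrophage markers below 0, and Cd37, Nkg7, Gp1bb and Col3a1. Exon lengths and overlaps came from GENCODE M21 and promoters from RefSeq (GRCm38.p6), matched by gene number, without coordinates of the submitters' build. Alternatives changed the pseudocount, scaling, a minimum of 10 CPM, size, interval level and membership. The 2-fold size rule and the counting interval were tested on simulated counts with known ratios, which held no spread between mice. The other steps were not tested in this way. Python 3.11.15, pandas 2.3.3 and scipy 1.17.1 were used.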

Additional observations from a re-analysis of the deposited data

How the results depend on the processing

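With plain totals the median difference of the 40 genes was -0.24, with 40 of them below 0, 39 counting intervals wholly below 1 and 0 wholly above, and the median of the other mitosis genes was -0.24. With totals that leave out haemoglobin and the 20 most abundant genes these values were -0.19, 39, 37, 0 and -0.19. The single difference of each of the 40 genes moved beyond its counting interval under both scalings, and none did so with pseudocounts of 0.1 or 5 or with centring. A scaling shifts all genes nearly alike, so these moves are not separate results. The shifts of the median of all genes, -0.17 and -0.13, were larger than the members' median interval half-width of 0.06 on log2. At a size of 1.2-fold 1 gene passed in place of 0, and at that size 18 passed with plain totals and 7 with the other totals, a combination chosen after seeing the data. Of these other totals, which also leave out Mki67, the members took 0.729% in P95H and 0.830% in WT. Without Mki67 they took 0.543% and 0.641% of all listed counts. Leaving out Mki67 was added after seeing the data, as was leaving out genes that share exon bases with an opposite-strand gene. Centring, pseudocounts, a minimum of 10 CPM, means, leaving out the X chromosome or the overlapping genes, and a 99% level left the medians and counts they were applied to close to their values. Some of these could change little: the minimum kept all 40 members, 1 member lies on the X chromosome, and centring moved each gene by 0.003. No paired analysis was possible because each genotype has 1 library, and for the same reason no replicate could be left out. For Ttk, the member with the fewest counts, counting error alone gives an interval of the ratio from 0.931 to 1.08 with the deposited CPM. Its difference on log2(CPM + 1) was 0.01 with the deposited CPM and -0.18 with plain totals. The interval takes the library sizes as given and does not cover a change of scaling.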
